A study of Homo sapiens with 6 samples.

Results

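CTC1, LINC00324, LOC101926933, LOC102577426, C12orf57 and TMEM107 are 6 of the 26364 genes in a table of short RNA counts, and the RefSeq annotation places genes of small non-coding RNAs inside each of them. CTC1, LINC00324 and both LOC genes hold tRNA genes, C12orf57 holds RNU7-1, the gene of U7 snRNA, and TMEM107 holds SNORD118, the gene of U8 snoRNA. They were chosen by symbol for their high counts before immunoprecipitation, so their own counts are given as a description with no test. All 6 were among the 8070 genes that passed the filter on low counts. The table holds 1 total per gene and no read positions, so reads of a small RNA and of the rest of its host cannot be told apart, and the idea that these rows were counted through the small RNAs was not tested. No row of the symbol SNORD118 or RNU7-1 was among those used here.

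All libraries came from HEK293T, a transformed human embryonic kidney line, and all cells had been given 200 nM okadaic acid, a phosphatase inhibitor, for 3 h. In 3 libraries (replicates 3, 6 and 9) RNA had been pulled down through phosphorylated UPF1 (p-UPF1 IP), UPF1 being the helicase of nonsense-mediated mRNA decay (NMD). The other 3 libraries (replicates 1, 4 and 7) are titled pre-IP, but their antibody label is rabbit IgG, so they may be RNA taken before the IP or a mock IP. The labels do not tie the replicates to separate cultures, so the spread between libraries may be technical.

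Transfer RNA genes are read by RNA polymerase III from a promoter that lies inside the gene, and its downstream element, the B box, becomes the T loop of the tRNA. U7 snRNA, in a particle with Sm and Lsm proteins, base-pairs with histone pre-mRNA and directs its 3′-end cleavage. U8 is a C/D box snoRNA needed for maturation of the large ribosomal subunit RNAs, and vertebrate U7 and U8 genes have promoters of their own. A small RNA gene on an exon of another gene, where both lie on the same strand, shares its sequence with that gene's transcript. A gene-level counter has to give such reads to one, both or neither.

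The stretches of sequence that mark these embedded genes are shown because each lies within a host transcript and tells which small RNA that host holds. They were cut from GENCODE release 29 transcripts (GRCh38), in the direction of the host transcript. In the tRNA genes the capitals mark the T-loop and B-box core GTTCNANNC, in U7 the Sm-type site AATTTGTCTAG, and in U8 the letters ATGATGA of its C box.
TRT-AGT1-2 in CTC1: gagatcctggGTTCGAATCccagcggtgcc
TRS-AGA2-6 in CTC1: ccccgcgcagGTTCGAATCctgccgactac
TRI-AAT4-1 in CTC1: aaggtcgcggGTTCGAACCccgtacgggcc
TRW-CCA1-1 in LINC00324: aaggttgcgtGTTCAAATCacgtcggggtc
TRP-CGG1-3 in LINC00324: gaggtcccggGTTCAAATCccggacgagcc
RNU7-1 in C12orf57: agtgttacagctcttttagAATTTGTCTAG
SNORD118 in TMEM107: agattagaacATGATGAttggagatgcatg
For scale, GTTCNANNC was found on either strand in 7.48% of 35116 RefSeq promoter windows of 300 bases, ATGATGA in 2.92% and AATTTGTCTAG in 0.00854% (3 windows). The U7 site was the rarest of these motifs, but it is also the longest and was cut from the U7 transcript itself. C12orf57's own promoter window was among those that held it, together with the 5′ end of U7. That match follows from the overlap of U7 with C12orf57 and is not a separate result. Promoter windows are not the exons that hold the other motifs, so these shares give scale only.

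The hosts differ in how the small RNA lies on them. CTC1, on chromosome 17, carries all 3 of its tRNA genes (74, 82 and 74 nt) whole in the 3′ UTR of its mRNA. LINC00324, a long non-coding RNA gene on the same chromosome, carries TRW-CCA1-1 and TRP-CGG1-3 (72 nt each) whole on its exon, TRD-GTC2-11 with 17 of 72 nt on the exon, and TRG-TCC3-1 outside it. In LOC101926933 (RefSeq PRMT5-DT, chromosome 14), 52 of the 73 nt of TRR-ACG1-3 lie on an exon. In LOC102577426 (RefSeq LINC01962, chromosome 5), 17 of the 72 nt of TRT-TGT6-1 do. C12orf57, on chromosome 12, overlaps 62 of the 63 nt of U7 with the 5′ UTR of 2 of its transcripts. TMEM107, on chromosome 17, holds all 137 nt of U8 in the 3′ UTR of 1 of its 9 annotated transcripts. The strand setting of the authors' counting is not given in the sources used here.

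The 4 tRNA-holding genes had far fewer counts in the p-UPF1 IP than in the pre-IP libraries. CTC1 and LINC00324 were among the most counted mRNA and lncRNA rows of pre-IP and were still counted above most genes in the IP, while both LOC genes were thinly counted in the IP. Together they took 0.0122% ± 0.00083 of all counts in p-UPF1 IP and 0.638% ± 0.0422 in pre-IP (SD, n = 3 each). A lower share in the IP can reflect less of these RNAs or more of all others, and shares of a library cannot tell these apart. Totals were 905926 to 2057647 counts in p-UPF1 IP and 600244 to 1179369 in pre-IP.

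CTC1 encodes a subunit of the CST complex, which binds single-stranded telomeric DNA and helps DNA polymerase alpha-primase fill in the lagging telomere strand. It had 140, 126 and 58 counts in the p-UPF1 IP libraries, against 4011, 1891 and 4188 in the pre-IP libraries. Scaled to the library total (CPM) that was 68.0, 68.5 and 64.0 in p-UPF1 IP and 3401, 3150 and 4432 in pre-IP. On the TMM scale it was 42.8, 45.9 and 32.4 CPM in p-UPF1 IP and 5132, 6771 and 7236 CPM in pre-IP. The groups lay far apart on either scale: the lowest pre-IP library was 46.0 times the highest IP library by library totals and 112 times by TMM. Scaled to totals, the mean was 66.8 ± 2.45 CPM in p-UPF1 IP and 3661 ± 679 CPM in pre-IP (SD, n = 3 each), and on the TMM scale it was 40.4 ± 7.03 in p-UPF1 IP and 6380 ± 1106 in pre-IP. The fitted log2 fold change, p-UPF1 IP over pre-IP on TMM-scaled libraries, was -7.30 (SE 0.59).

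LINC00324, a lncRNA gene near CTC1, had 114, 73 and 50 counts in p-UPF1 IP, against 2692, 1607 and 1980 in pre-IP, which is 55.4, 39.7 and 55.2 CPM in p-UPF1 IP and 2283, 2677 and 2095 CPM in pre-IP. The groups did not overlap, and its fitted log2 fold change was -7.13 (SE 0.56). The ratio of CTC1 counts to LINC00324 counts overlapped between the groups, at 1.16 to 1.73 in the p-UPF1 IP libraries and 1.18 to 2.12 in the pre-IP libraries.

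The other 2 tRNA-holding genes, both long non-coding, were counted at a lower level in both groups. LOC101926933, a transcript that starts beside the arginine methyltransferase gene PRMT5 and runs away from it, had 3, 3 and 4 counts in p-UPF1 IP, against 226, 85 and 180 in pre-IP. LOC102577426 had 4, 4 and 2 counts in p-UPF1 IP, against 210, 154 and 130 in pre-IP. Neither gene reached 5 counts in any IP library, and neither fell under 85 in a pre-IP library. Their fitted log2 fold changes were -7.77 (SE 0.42) for LOC101926933 and -7.98 (SE 0.50) for LOC102577426. With 10 counts each over the IP libraries, their IP level is loosely fixed, and the spread of LOC101926933 among IP libraries, 1.46 to 4.42 CPM, comes from 3 or 4 counts per library.

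**Figure D1:**
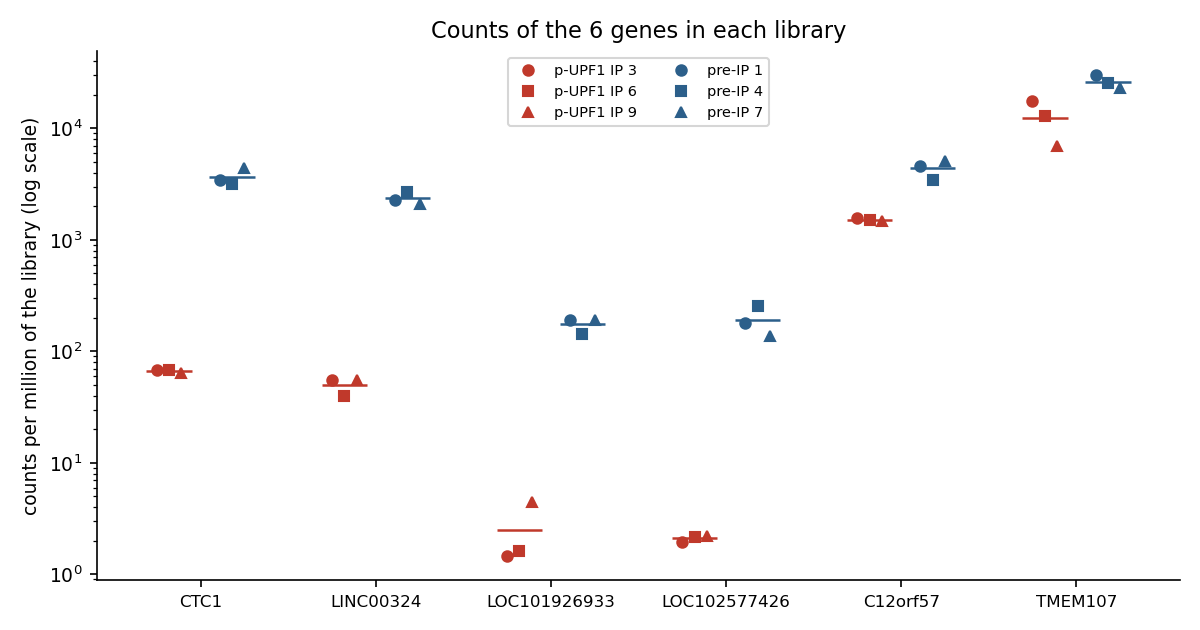
Counts scaled to the library total (CPM, log scale) for each of the 6 genes in the p-UPF1 IP libraries 3, 6 and 9 (red, left) and the pre-IP libraries 1, 4 and 7 (blue, right), with the group mean as a line. The red and blue points of CTC1, LINC00324 and both LOC genes lie far apart (CTC1 64.0 to 68.5 CPM in p-UPF1 IP and 3150 to 4432 CPM in pre-IP), while those of C12orf57 and TMEM107 lie close but do not overlap.

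C12orf57 and TMEM107 stood apart from the tRNA holders: they stayed among the most counted genes of the IP. C12orf57, a protein-coding gene linked to development of the corpus callosum, had 3241, 2771 and 1337 counts in p-UPF1 IP, against 5446, 2070 and 4815 in pre-IP. Scaled to the library total that was 1575, 1506 and 1476 CPM in p-UPF1 IP and 4618, 3449 and 5095 CPM in pre-IP. The mean was 1519 ± 50.9 CPM in p-UPF1 IP and 4387 ± 847 CPM in pre-IP (SD, n = 3 each). On the TMM scale it was 915.5 ± 145.5 CPM in p-UPF1 IP and 7567 ± 689 CPM in pre-IP, and the fitted log2 fold change was -3.05 (SE 0.50).

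TMEM107 encodes a membrane protein of the ciliary transition zone, the gate at the base of the primary cilium. It had 36272, 23744 and 6219 counts in p-UPF1 IP, against 35534, 15247 and 21794 in pre-IP. The raw counts of the groups overlap, but the shares of the library did not, at 17630, 12900 and 6865 CPM in p-UPF1 IP and 30130, 25400 and 23060 CPM in pre-IP. IP replicate 9 was the lowest and IP replicate 3 the highest, 2.57 times apart, so the IP mean of 12470 ± 5395 CPM is less tightly fixed than the pre-IP mean of 26200 ± 3600 CPM (SD, n = 3 each). Its fitted log2 fold change was -2.57 (SE 0.76). TMEM107 alone took 1.25% ± 0.539 of all counts in p-UPF1 IP and 2.62% ± 0.360 in pre-IP, most of what the 6 genes took together (1.41% ± 0.544 in p-UPF1 IP and 3.70% ± 0.332 in pre-IP).

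Ranks within a library, which need no scaling between libraries, show the same split among the 6 genes. TMEM107 was at ranks 1, 5 and 5 in the p-UPF1 IP libraries and at ranks 4, 5 and 5 in the pre-IP libraries. C12orf57 ranked 68 to 87 in p-UPF1 IP and 25 to 50 in pre-IP. CTC1 ranked 2196 to 3074 in p-UPF1 IP and 30 to 54 in pre-IP, and LINC00324 ranked 2886 to 3711 in p-UPF1 IP and 64 to 73 in pre-IP. Both LOC genes stood at percentiles 6.67 to 16.3 of the genes counted in p-UPF1 IP and at percentiles 95.2 to 96.6 in pre-IP. Set against CTC1, C12orf57 had 22.0 to 23.2 times its counts in the IP libraries and 1.10 to 1.36 times its counts in the pre-IP libraries.

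**Figure D2:**
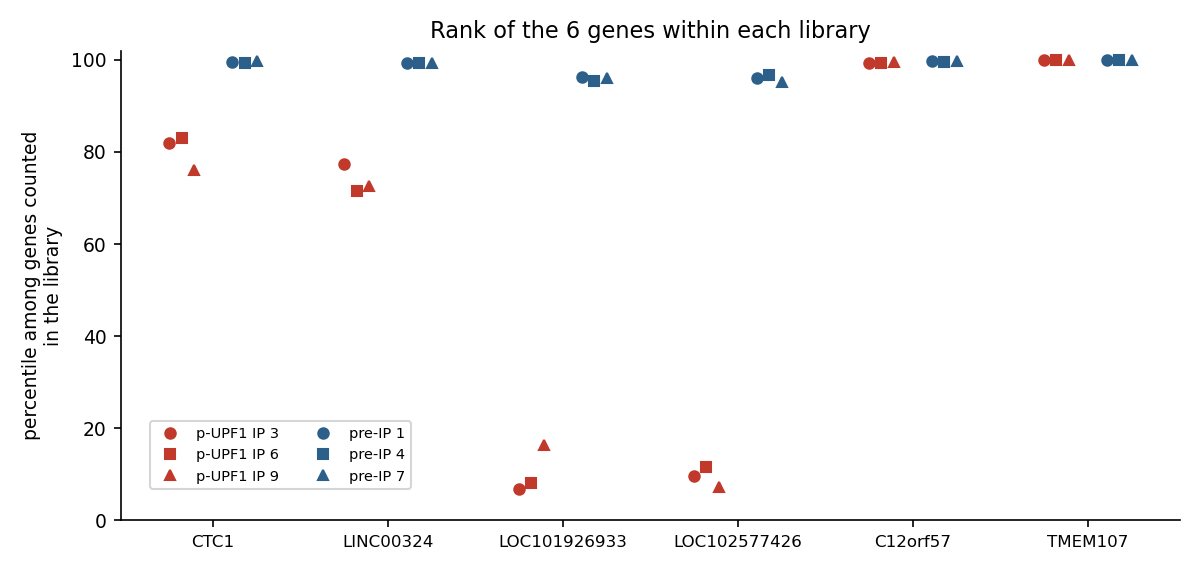
Percentile of each of the 6 genes among the genes counted in a library (y axis, 100 is the most counted gene), in p-UPF1 IP libraries (red, left) and pre-IP libraries (blue, right). TMEM107 and C12orf57 lie at percentile 99.3 or above in all 6 libraries, whereas LOC101926933 and LOC102577426 lie at 6.67 to 16.3 in p-UPF1 IP and at 95.2 to 96.6 in pre-IP.

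Among protein-coding and lncRNA rows ordered by their summed pre-IP counts, TMEM107 (72575), C12orf57 (12331), CTC1 (10090) and LINC00324 (6279) held places 2 to 5, and LOC102577426 (494) and LOC101926933 (491) places 161 and 162. The histone gene HIST1H4C came next after LINC00324, with 5675 pre-IP counts. These are counts per gene, not per length, so their order is not an order of RNA molecules.

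In the fit across all genes, 1591 of 8070 (19.7%) passed the 0.05 threshold, with higher values in p-UPF1 IP for 711 (8.81%) and lower ones for 880 (10.9%), by edgeR's quasi-likelihood test with Benjamini-Hochberg adjustment. Over all tested genes the median log2 fold change was 0.10. With libraries scaled by their totals alone that median was 1.63, 4874 genes were called higher and 156 lower, and all 6 host genes still had negative values (-6.42 to -1.05). A log2 fold change below -7, a line drawn after the values were seen, was reached by 12 genes (0.149%), of which 4 are the tRNA holders. The other 8 carry symbols of Y RNAs, a vault RNA, RNase P RNA and microRNAs. All 6 host genes lay below -2.5, as did 185 genes in all (2.29%), and the groups of all 6 did not overlap, as in 1432 genes with p-UPF1 IP lower (17.7%). The choice of the 6 genes used this contrast, so nothing is read from those counts.

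**Figure D3:**
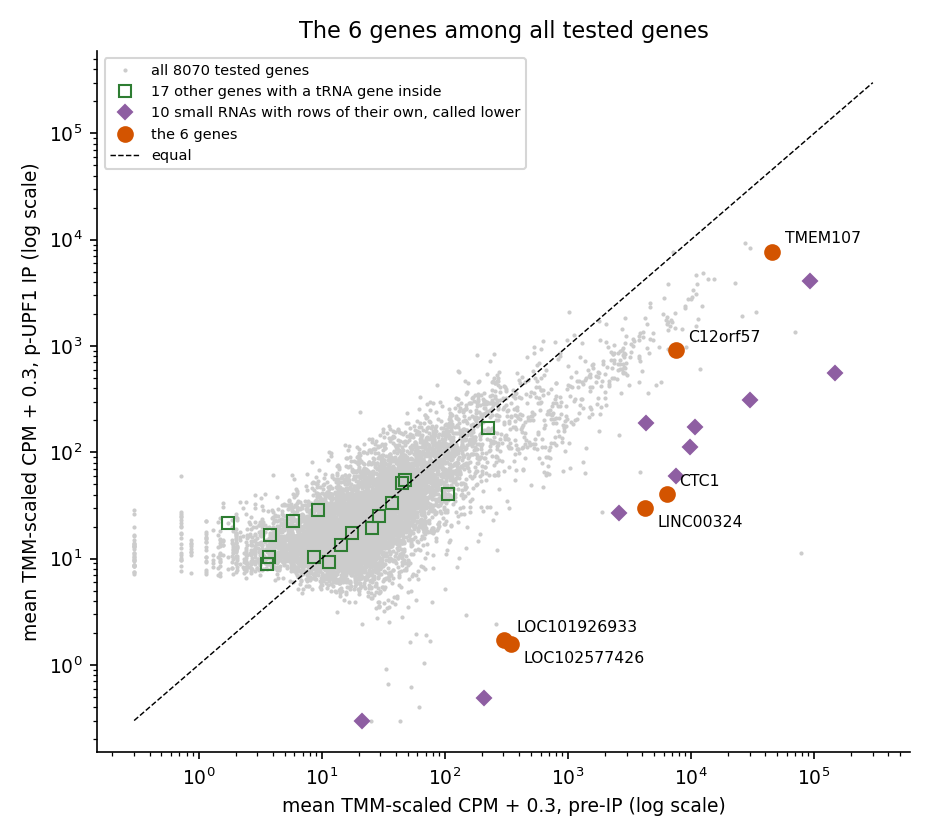
Mean TMM-scaled CPM plus 0.3 in p-UPF1 IP (y axis) and in pre-IP (x axis), both log scales, for all 8070 tested genes (grey), the 6 host genes (orange), 17 other genes with a tRNA gene inside (green squares) and 10 small RNAs with rows of their own that were called lower (purple). The orange and purple points lie below the line of equality, with 4 of the 6 orange points at a log2 fold change below -7, while the green squares lie among the grey points.

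Small RNAs that have rows of their own were not among the chosen genes, and they were tested. Their list was also drawn up with earlier results of these data known, so it is not independent of them. RPPH1 is the RNA of RNase P, which trims the 5′ end of tRNA precursors, vault and Y RNAs are short products of RNA polymerase III, and RNU11, RNU12, RNU4ATAC and RNU6ATAC belong to the minor spliceosome. Of 12 such genes listed, 11 were tested, and 0 rose and 10 fell in p-UPF1 IP by edgeR (0 and 11 by DESeq2, by limma-voom and at an unadjusted p under 0.05), with a median log2 fold change of -6.59 (-6.44 with RNY5 taken at its bound). Among all tested genes edgeR called 8.81% higher and 10.9% lower. The vault RNA VTRNA1-2 had 176, 157 and 119 counts in p-UPF1 IP, against 5109, 2233 and 4793 in pre-IP (log2 fold change -7.01, SE 0.59, adjusted p = 8.05e-07). RPPH1 had 2048, 2181 and 474 counts in p-UPF1 IP, against 100701, 44544 and 89117 in pre-IP (-8.04, SE 1.19, adjusted p = 0.000225).

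Among the minor spliceosome RNAs, RNU6ATAC (log2 fold change -6.59, SE 0.79, adjusted p = 3e-05), RNU4ATAC (-5.97, SE 0.66, adjusted p = 1.49e-05), RNU12 (-4.52, SE 0.48, adjusted p = 1.11e-05) and RNU11 (-4.50, SE 0.92, adjusted p = 0.00253) fell. The vault RNAs VTRNA1-3 (-6.60, SE 0.52, adjusted p = 3.66e-07) and VTRNA1-1 (-6.44, SE 0.64, adjusted p = 4.58e-06) fell as well. RNY4, a Y RNA, had 1 count over the p-UPF1 IP libraries and 349 over the pre-IP libraries, a ratio of pre-IP over IP of 1662 on scaled totals (exact 95% interval 296 to 65840). RNY5 had 0 counts in p-UPF1 IP and 33 in pre-IP, at least 52.4-fold lower against 3 counts over the IP libraries. The 1 tested gene that was not called was RMRP, the RNA of RNase MRP, at -1.83 (SE 0.68, adjusted p = 0.0677) and was named after its value was seen. It passed the threshold with DESeq2 (adjusted p = 5.41e-05), limma-voom (0.0088), no filter (0.044) and a replicate block (0.019).

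The 6 libraries give each gene a profile of log2 CPM, and the closest profiles to each host were looked up among the tested genes other than the 6 hosts, after each profile was centred on its own mean. Among those genes VTRNA1-2 was the nearest to all 4 tRNA holders, at a Euclidean distance of 0.675 log2 units from CTC1, 0.728 from LINC00324 and 0.385 from LOC101926933. The profile of LOC102577426 was farther from its nearest ones among them, with RNU6ATAC at 1.16 and RNY4 at 1.17 next after VTRNA1-2. RNY4 was among the 3 nearest for each of them as well, at 0.503 to 1.17. With 0, 0 and 1 counts in the p-UPF1 IP libraries, its profile there rests mostly on the prior count of 2, which can make RNY4 look closer. The nearest profiles of TMEM107 were those of the C/D box snoRNA SNORD79 (0.245) and of the Cajal body RNAs SCARNA2 (0.423) and SCARNA10 (0.424). Those of C12orf57 were the snoRNA SNORD59B (0.487), the microRNA gene MIR222 (0.516) and the mRNA USMG5 (0.533). The tRNA holders lay 0.527 to 1.16 from each other, and LINC00324 and LOC102577426, at 0.527, were nearer to each other than either was to VTRNA1-2. C12orf57 and TMEM107 lay 1.14 apart, and any tRNA holder lay 4.73 to 5.68 from either of those. The group contrast, which chose the genes, makes up most of such a profile, so these distances describe the 6 libraries and carry no test.

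Genes beside the hosts were not used to choose the hosts, but their lists too were drawn up with earlier results of these data known. Around CTC1, LINC00324 and TMEM107 on chromosome 17, 9 neighbours are in the table, 7 were counted and 3 tested, and edgeR called 0 of them (DESeq2 called 0, limma-voom 1, and 1 had an unadjusted p under 0.05), too few genes to set beside the 19.7% of all tested genes. AURKB, the mitotic kinase beside LINC00324, had 154, 103 and 76 counts in p-UPF1 IP, against 35, 18 and 19 in pre-IP (log2 fold change -0.11, SE 0.37, adjusted p = 0.862). PFAS, a purine synthesis enzyme beside CTC1, had 189, 126 and 114 counts in p-UPF1 IP, against 12, 11 and 16 in pre-IP (1.12, SE 0.41, adjusted p = 0.0623), and it passed the threshold without pre-IP replicate 4 (1.44, adjusted p = 0.0264), with no filter (0.0319) and with limma-voom (0.0468). The circadian repressor PER1 had 39, 54 and 31 counts in p-UPF1 IP, against 6, 0 and 16 in pre-IP (0.33, SE 0.73, adjusted p = 0.790).

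Around C12orf57 on chromosome 12, 11 neighbours are in the table and 7 were tested, of which 1 rose and 3 fell by edgeR, DESeq2 and limma-voom, too few genes to set beside the 8.81% higher and 10.9% lower among all tested genes. The 3 that fell are small Cajal body RNAs, which guide modification of spliceosomal snRNAs: SCARNA11 (log2 fold change -4.14, SE 0.47, adjusted p = 1.83e-05), SCARNA10 (-2.79, SE 0.47, adjusted p = 0.00073) and SCARNA12 (-2.58, SE 0.52, adjusted p = 0.00238). Without IP replicate 3, SCARNA12 fell by 3.39 (adjusted p = 0.00147). ATN1, which encodes atrophin-1, had 37, 60 and 20 counts in p-UPF1 IP and 0 in each pre-IP library, at least 8.19-fold higher against 3 counts over the pre-IP libraries (adjusted p = 0.00639). The RefSeq annotation places SCARNA12 inside PHB2, so that pair has a host row and a small RNA row. The mRNAs of the prohibitin PHB2 (0.27, SE 0.30, adjusted p = 0.569), the nucleolar methyltransferase NOP2 (0.38, SE 0.39, adjusted p = 0.538) and the enolase ENO2 (-0.11, SE 0.76, adjusted p = 0.936) were not called. The 7 tested neighbours had a median log2 fold change of -0.11, against 0.33 for the 3 on chromosome 17 and 0.10 for all tested genes.

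The untested neighbours were thinly counted. On chromosome 17, the synaptobrevin gene VAMP2 had 19 counts over the p-UPF1 IP and 7 over the pre-IP libraries, RANGRF 46 in p-UPF1 IP and 14 in pre-IP, C17orf59 3 in p-UPF1 IP and 13 in pre-IP, and SLC25A35 5 in p-UPF1 IP and 0 in pre-IP. On chromosome 12, EMG1 had 59 counts over the p-UPF1 IP and 14 over the pre-IP libraries, LPCAT3 45 in p-UPF1 IP and 11 in pre-IP, LRRC23 31 in p-UPF1 IP and 4 in pre-IP, and PTPN6 2 in p-UPF1 IP and 0 in pre-IP. The largest of these sums over the pre-IP libraries was 14.

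**Figure D4:**
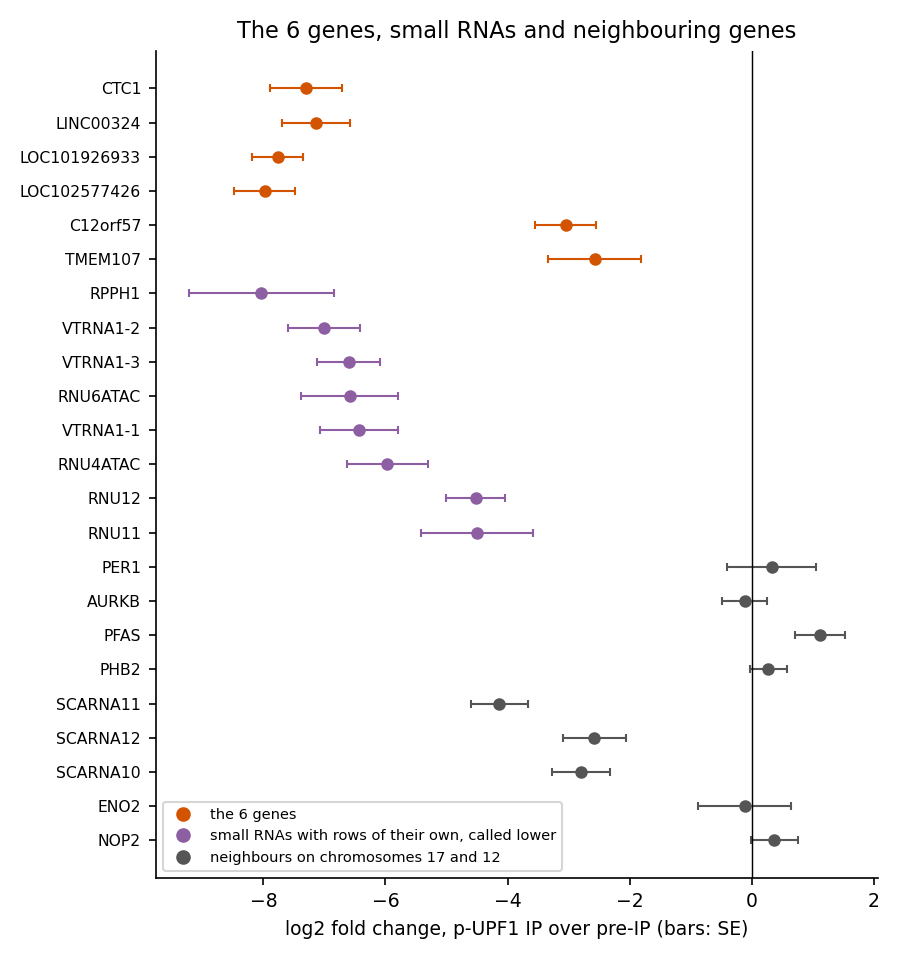
Log2 fold change, p-UPF1 IP over pre-IP, with its standard error as a bar, for the 6 host genes (orange), small RNAs with rows of their own that were called lower (purple; RNY4 and RNY5 left out for their 1 and 0 IP counts) and tested neighbours on chromosomes 17 and 12 (grey; ATN1 left out for its 0 pre-IP counts). The hosts run between -7.98 and -2.57, whereas the mRNA neighbours run between -0.11 and 1.12 and the neighbouring SCARNA genes between -4.14 and -2.58.

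Other genes with a tRNA gene inside had log2 fold changes between -1.38 and 3.52. With the 6 hosts left out, 4 genes in the table carry one on an exon, 2 of them were tested and 0 were called by edgeR, DESeq2 or limma-voom or had an unadjusted p under 0.05: NOC2L, a histone-binding repressor, at 0.29 (SE 0.39, adjusted p = 0.643) and ZBED9 at 1.40 (SE 0.99, adjusted p = 0.340). ZBED9 passed the threshold without pre-IP replicate 7 (adjusted p = 0.0344), which holds its 6 pre-IP counts. A further 30 genes carry a tRNA gene outside their exons, and of the 15 tested 1 rose and 1 fell (6.67% lower), with a median log2 fold change of 0.05. Among all tested genes 8.81% were higher and 10.9% lower. ARPC2, a subunit of the actin-nucleating complex, fell by 1.38 (SE 0.31, adjusted p = 0.00514), and stood at 0.17 when libraries were scaled by their totals alone. NFIB, a transcription factor, had 174 counts over the p-UPF1 IP and 3 over the pre-IP libraries, a ratio of IP over pre-IP of 12.2 on scaled totals (exact 95% interval 4.10 to 59.6, adjusted p = 0.00919, but 0.0935 without IP replicate 3). The most counted of these 15 genes had 355 counts over the pre-IP libraries, while CTC1 had 10090 and LINC00324 had 6279.

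Genes that hold other small RNA genes were compared in the same way, again without the 6 hosts. Of all tested genes, edgeR called 8.81% higher and 10.9% lower, and the counts of each class below stand beside these shares. Of 15 tested genes with an snRNA gene outside their exons, 2 rose and 0 fell by edgeR, DESeq2 and limma-voom (4 higher and 0 lower at an unadjusted p under 0.05), with a median log2 fold change of 0.49. Those 2, named like the others here after their values were seen, were PRRC2C (1.82, SE 0.34, adjusted p = 0.00152) and the splicing helicase DHX8 (1.17, SE 0.33, adjusted p = 0.0194). Of 80 tested genes with a snoRNA gene on an exon, 3 rose and 20 fell (25%), with a median of -0.20. The 80 include HNRNPU-AS1, matched to HNRNPU by older symbol, so SNORA100 counts for both rows. Neither was called (adjusted p = 0.0624 for HNRNPU-AS1 and 0.655 for HNRNPU). The 3 that rose were the snoRNA host SNHG15 (1.90, SE 0.45, adjusted p = 0.00704), C19orf48 (1.53, SE 0.46, adjusted p = 0.0282) and the chromatin remodeller CHD8 (0.93, SE 0.31, adjusted p = 0.0419). Single libraries decide these weaker calls: DHX8 lost its call without any IP library (adjusted p 0.0744 to 0.076), SNHG15 without IP replicate 6 (0.0566), C19orf48 without pre-IP replicate 7 or IP replicate 3 or 9 (0.0868 to 0.18), and CHD8 without any 1 library except pre-IP replicate 4 (0.071 to 0.235). With limma-voom C19orf48 (0.0643) and CHD8 (0.0525) were not called, nor was CHD8 with a stricter filter (0.0524). Of 268 with a snoRNA gene outside their exons, 39 rose and 15 fell (5.6%), with a median of 0.32. The lowest values among them were those of the ribosomal protein mRNAs RPL39, on an exon (-3.20, SE 0.33, adjusted p = 7.1e-06), and RPS12, outside exons (-3.50, SE 0.33, adjusted p = 3.04e-06). A further 2 tested genes hold a small RNA gene of another class, and both fell. MALAT1, a nuclear lncRNA that carries the tRNA-like MASCRNA (58 nt) whole on its exon, had 347, 460 and 86 counts in p-UPF1 IP, against 773, 111 and 176 in pre-IP (-2.40, SE 0.48, adjusted p = 0.00216). MALAT1 was at -1.69 without pre-IP replicate 1 (adjusted p = 0.0129) and was not called by library totals alone (-0.98, adjusted p = 0.0693). RPS29, a ribosomal protein gene with RN7SL1, an RNA of the signal recognition particle, outside its exons, had 79, 97 and 58 counts in p-UPF1 IP, against 133, 71 and 94 in pre-IP (-2.66, SE 0.32, adjusted p = 2.8e-05). The 7683 tested genes that hold none of these small RNA genes had 836 lower (10.9%) and a median of 0.10. Small Cajal body RNAs were not one of the classes, so PHB2, the host of SCARNA12, is counted among them. Whether the classes differ from each other was not tested.

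The partners of the host proteins were followed as lists. Of 14 genes of the CST complex, DNA polymerase alpha-primase and telomere protection, 7 were tested, and 0 rose and 2 fell by edgeR, DESeq2 and limma-voom alike (1 was higher and 2 lower at an unadjusted p under 0.05), with a median log2 fold change of 0.32. These are too few genes to set beside the 8.81% higher and 10.9% lower among all tested genes. TERF2IP, the telomere protein RAP1, fell by 1.52 (SE 0.32, adjusted p = 0.00307), but its log2 fold change was 0.050, no longer negative, by library totals alone. PRIM2, the large primase subunit, fell by 2.34 (SE 0.58, adjusted p = 0.00949). PRIM2 lost the call without pre-IP replicate 7 (-1.69, adjusted p = 0.0817), IP replicate 3 (0.0506) or IP replicate 9 (0.0587), and by library totals alone (-0.87, adjusted p = 0.25). POLA1, the catalytic subunit and the polymerase that CST recruits, was at 0.32 (SE 0.35, adjusted p = 0.554). Of 17 genes of the ciliary transition zone around TMEM107, 10 were tested, and 0 rose and 0 fell by edgeR, DESeq2 or limma-voom (1 had an unadjusted p under 0.05, lower), with a median of 0.11. The most abundant of them were CEP290, the linker between microtubules and membrane (0.32, SE 0.46, adjusted p = 0.671), and TMEM237 (-0.35, SE 0.36, adjusted p = 0.533).

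The machinery that makes the embedded small RNAs was followed too. Of 30 genes of tRNA transcription, processing and export, 26 were tested, and edgeR called 4 higher and 1 lower (5 and 2 by DESeq2, 3 and 3 by limma-voom), beside 8.81% higher and 10.9% lower among all tested genes. Their median log2 fold change was 0.13, against 0.10 for all tested genes. The 4 that rose by edgeR encode RNA polymerase III factors: BDP1 by 1.82 (SE 0.41, adjusted p = 0.00494) and BRF1 by 2.29 (SE 0.72, adjusted p = 0.0339), both parts of TFIIIB, and the TFIIIC subunits GTF3C1 by 1.37 (SE 0.33, adjusted p = 0.00763), which contacts the B box, and GTF3C5 by 2.22 (SE 0.62, adjusted p = 0.0192). TSEN15, a subunit of the tRNA splicing endonuclease, fell by 2.07 (SE 0.51, adjusted p = 0.00903). The tRNA exporter XPOT was at -0.83 (SE 0.30, adjusted p = 0.0607) and passed the threshold with a stricter filter (0.0281), a replicate block (0.0321) or limma-voom (0.0356). BRF1 had 7 counts over the pre-IP libraries and lost its call without any 1 library except pre-IP replicate 4 (adjusted p 0.0508 to 0.146), with a replicate block (2.31, adjusted p = 0.0587) and with limma-voom (2.05, adjusted p = 0.0733). GTF3C5, with 13 pre-IP counts, lost its call without pre-IP replicate 1 (1.51) or any IP library (adjusted p 0.0546 to 0.0929) and was at 2.99 without pre-IP replicate 4. TSEN15 lost its call without IP replicate 3 (adjusted p = 0.0554) or 9 (0.0589) and by library totals alone (-0.58, adjusted p = 0.382). BDP1 was at 2.63 without pre-IP replicate 1.

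Of 15 genes of the U7 particle and histone 3′-end processing, 14 were tested, and 1 rose and 4 fell by edgeR, DESeq2 and limma-voom, beside 8.81% higher and 10.9% lower among all tested genes. Their median log2 fold change was -0.35, against 0.10 for all tested genes. The 4 that fell encode Sm proteins, shared by U7 and the spliceosomal snRNPs: SNRPG (-2.88, SE 0.49, adjusted p = 0.000714), SNRPF (-2.66, SE 0.50, adjusted p = 0.00152), SNRPE (-2.56, SE 0.38, adjusted p = 0.000215) and SNRPB (-0.84, SE 0.28, adjusted p = 0.043). By library totals alone the log2 fold change of SNRPB turned positive, at 0.74. SNRPB lost its call without any 1 of the 6 libraries (adjusted p 0.0533 to 0.125), with RLE (0.0508) or upper-quartile scaling (0.051) and with no filter (0.212). By library totals alone SNRPE (-0.99, adjusted p = 0.0657) and SNRPF (-1.10, adjusted p = 0.121) were not called. SYMPK, a scaffold of the cleavage complex, had 473 counts over the p-UPF1 IP and 1 over the pre-IP libraries, a ratio of IP over pre-IP of 99.3 on scaled totals (exact 95% interval 17.7 to 3931). SLBP, which binds the histone stem-loop, was at -0.29 (SE 0.32, adjusted p = 0.560). Markers of blood, liver, connective tissue, muscle and skin cells, as a check on the cell line, had 3 of 8 genes counted and 0 tested, at no more than 0.00068% of any library.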

How the data were processed

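The authors deposited raw, whole-number read counts per gene symbol and library. The submitters' processing notes list hg19 as the build and name STAR 2.5.2b, cutadapt 1.15 and, from Subread 1.5.0p3, featureCounts. Which annotation and strand setting were used, and how multiply matching reads were handled, is not stated there, so reads of overlapping genes, antisense partners and near-identical copies, tRNA genes among them, cannot be told apart. Per the labels' protocols, rRNA-depleted RNA was dephosphorylated and joined to 33-nt adapters, PCR ran for 20 cycles, and inserts longer than 20 bp were kept, so short RNAs can enter the libraries whole. Without molecular identifiers, intervals and bounds cover counting error only.

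Counts were tested once over all genes with the quasi-likelihood test of edgeR 4.0.16 in R 4.3.3 (TMM scaling, filterByExpr at 10 counts or more, Benjamini-Hochberg at 0.05), 3 p-UPF1 IP against 3 pre-IP libraries. The SE is the log2 fold change divided by the square root of F. Profiles used log2 CPM with a prior count of 2. The fit was tested on simulated data. The 6 genes and all gene lists were chosen with earlier results of these data known. Named were the 6 genes, counted neighbours, the 2 most abundant and all called members of each list, and the 3 nearest profiles. The other hosts of small RNA genes that are named, RMRP and HIST1H4C were picked after their values were seen. Alternatives were RLE, upper-quartile and totals-only scaling, scaling without the 10 most counted genes, no filter and a stricter one (30 counts in 3 libraries), DESeq2 1.42.0, limma-voom (limma 3.58.1), a replicate block, and each library left out.

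Small RNA genes inside others were taken from RefSeq (GRCh38.p14) by symbol (23629 genes), older symbol (1569) or gene ID (971), with 195 unmatched, and exons and sequences from GENCODE release 29. Both are of a later build than the counts, so no coordinates are given. Strands were not compared when a small RNA gene was placed on an exon of a host.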

Additional observations from a re-analysis of the deposited data

How the results depend on the processing

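Scaling by library totals alone moved the values most: the 6 genes were then at -5.75 (CTC1), -5.53 (LINC00324), -6.25 (LOC101926933), -6.42 (LOC102577426), -1.51 (C12orf57) and -1.05 (TMEM107), with 5030 genes called over the table, 9 among the neighbours (4 by TMM) and 34 among the pathway lists (12 by TMM). The same scaling turned AURKB (1.45), ENO2 (1.40), TERF2IP (0.050), TMEM237 (1.151), XPOT (0.74), SLBP (1.23), SNRPB (0.74) and ARPC2 (0.17) positive. Under the other 14 alternatives the log2 fold changes ranged over -7.43 to -7.12 for CTC1, -7.26 to -6.80 for LINC00324, -3.15 to -2.87 for C12orf57 and -2.92 to -2.20 for TMEM107. With 1 library left out, LOC101926933 ran over -8.11 to -7.50 and LOC102577426 over -8.20 to -7.48, calls over the table over 791 to 1628, and calls in the pathway lists over 7 to 13. The lowest counts came without IP replicate 3 (791 and 7), 9 (908 and 7) or 6 (950 and 9). Values near 0 changed sign with 1 library left out: PER1 ran over -0.031 to 1.64, AURKB over -0.29 to 0.15, ENO2 over -0.59 to 1.28 and CEP290 over -0.20 to 1.10. AURKB also did with no filter (0.063), and ENO2 with no filter (0.068), limma-voom (0.19) and a replicate block (0.25). Without the 10 most counted genes in the denominator, the 6 genes held 5.41% of pre-IP counts. The groups share no replicate numbers, so no number pairs them; a replicate block by consecutive label numbers gave 1656 calls, against 1591. The cause of these shifts was not tested. The low totals limit how firmly the IP level of the hosts is known, most of all for both LOC genes, with 10 IP counts each.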
